A study of Arabidopsis thaliana with 18 samples.

Results

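The genes described here are 10 genes of Arabidopsis thaliana that act in the root tip's local response to low phosphate. They are defined by locus, with no measured value in the rule, out of 33602 features listed in any library. The choice was made with earlier results of these data known. The set holds STOP1 (AT1G34370), ALMT1 (AT1G08430), MATE (AT1G51340), ALS3 (AT2G37330), STAR1 (AT1G67940), LPR1 (AT1G23010), LPR2 (AT1G71040), PDR2 (AT5G23630), GDH2 (AT5G07440) and CIPK23 (AT1G30270). All 10 were listed in all 18 libraries and passed the filter on low counts, which left 20599 features.

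A root tip that meets medium without phosphate can stop growing because of that contact alone, before the plant as a whole is short of phosphate. In the accepted scheme the zinc finger transcription factor STOP1 accumulates in the nucleus and switches on ALMT1, a channel that releases malate into the cell wall. Malate and the cell wall ferroxidase LPR1 together let iron collect in the root tip, where callose is laid down and growth stops, while PDR2, a P5-type ATPase of the endoplasmic reticulum, restrains LPR1.

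RNA was sequenced from root apices of about 0.5 cm, cut from wild-type seedlings of the ecotypes Columbia (Col) and Landsberg erecta (Ler). Seedlings had grown for 7 days on nylon mesh over MS/10 medium with 500 µM phosphate. Apices were taken at 0 h, or 1 h or 2 h after the mesh was moved to MS/10 medium lacking phosphate, with 3 libraries in each of the 6 groups. One protocol text says that the 0 h mesh was moved to fresh medium with phosphate, while the 0 h labels themselves give no treatment. Transfer without phosphate removal was not analysed at 1 h or 2 h, so the effects of the move and of phosphate removal cannot be told apart. Libraries held 23451068 to 29277597 counts. All 7 root apex markers, among them PLT1, WOX5 and SMB, were detected in every library. Levels are given as CPM, the counts of a gene in a library scaled to 1000000 counts, with the library size adjusted by its TMM normalisation factor. A change was called at an adjusted p under 0.05 (edgeR quasi-likelihood test, Benjamini-Hochberg over all features tested). The labels call the libraries biological replicates. They do not say how many plants each one holds.

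The promoters of the genes on which the results turn most are shown first, since STOP1 binds DNA and ALMT1 is its best known target. Each run is 250 bases directly before the annotated start of the gene, 5′ to 3′ on the plus strand of the RefSeq TAIR10.1 assembly, which is Col sequence. Capitals mark matches on either strand to the core reported for STOP1 sites: GG, then any base, then any base other than T, and last either C or G, with GGNAC as one of its forms. The runs lie at chr1:12550089-12550338 (STOP1), chr1:2658352-2658601 (ALMT1), chr1:8146868-8147117 (LPR1) and chr5:2355509-2355758 (GDH2).
STOP1: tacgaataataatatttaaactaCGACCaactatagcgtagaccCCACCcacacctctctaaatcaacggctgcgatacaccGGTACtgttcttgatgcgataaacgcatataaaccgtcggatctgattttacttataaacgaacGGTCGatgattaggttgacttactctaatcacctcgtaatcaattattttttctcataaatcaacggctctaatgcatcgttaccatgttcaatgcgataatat
ALMT1: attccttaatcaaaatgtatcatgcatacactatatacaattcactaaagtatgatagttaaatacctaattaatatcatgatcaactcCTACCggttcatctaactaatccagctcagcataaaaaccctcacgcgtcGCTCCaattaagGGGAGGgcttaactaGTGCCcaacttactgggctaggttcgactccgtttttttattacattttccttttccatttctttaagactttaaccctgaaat
LPR1: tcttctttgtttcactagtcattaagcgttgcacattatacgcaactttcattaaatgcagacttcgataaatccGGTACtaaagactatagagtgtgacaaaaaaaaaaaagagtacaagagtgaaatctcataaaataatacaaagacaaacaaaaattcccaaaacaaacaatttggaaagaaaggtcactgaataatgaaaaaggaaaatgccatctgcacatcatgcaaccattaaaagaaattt
GDH2: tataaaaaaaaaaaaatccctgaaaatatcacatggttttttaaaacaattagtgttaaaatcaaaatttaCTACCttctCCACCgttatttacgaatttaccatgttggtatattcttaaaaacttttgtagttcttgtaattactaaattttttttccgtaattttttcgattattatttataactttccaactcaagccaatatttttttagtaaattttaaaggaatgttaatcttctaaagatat
The ALMT1 run holds 5 matches, of which 4 begin 111 to 84 bases before the start and 2 overlap each other. STOP1's own promoter holds 4, GDH2's 2 and LPR1's 1. Such short letters are common: 86.4% of the 27438 protein-coding promoters of this length hold at least 1, with a median of 2. Among the other members, PDR2 has 5, ALS3 3, STAR1 2 and LPR2 1, and none begins in the runs of MATE or CIPK23. The letters CGCG, the core bound by CAMTA factors, occur 117 bases before the ALMT1 start and in 10.1% of promoters. The PHR1 motif P1BS (GNATATNC) occurs only in GDH2 among the 10 members, 141 bases before its start, and in 5.5% of promoters. The W-box core TTGAC, which WRKY factors bind, is in the runs of STOP1 and STAR1 and in 44.9% of promoters. All motifs were searched on both strands, and a match is a description of the letters.

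Divided by exon length, the level of GDH2, a glutamate dehydrogenase of mitochondria, was the highest of the 10 in all 6 groups, with 208.6 (Ler 0 h) to 538.7 CPM per kb (Col 1 h). MATE was the lowest in every group at 0.989 to 1.54 CPM per kb, and LPR1 was the next lowest at 2.42 to 7.21. ALMT1 came next after GDH2 in Col at 0 h, at 114.9 ± 39.3 CPM per kb (SD, n = 3), and had rank 5 in all 3 Ler groups, at 29.6 to 38.7. At 0 h in Col the SD of ALMT1 reached from CIPK23 (79.8) to well above it. Both genes were measured in the same 3 libraries, and their order within libraries was not tested.

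**Figure D1:**
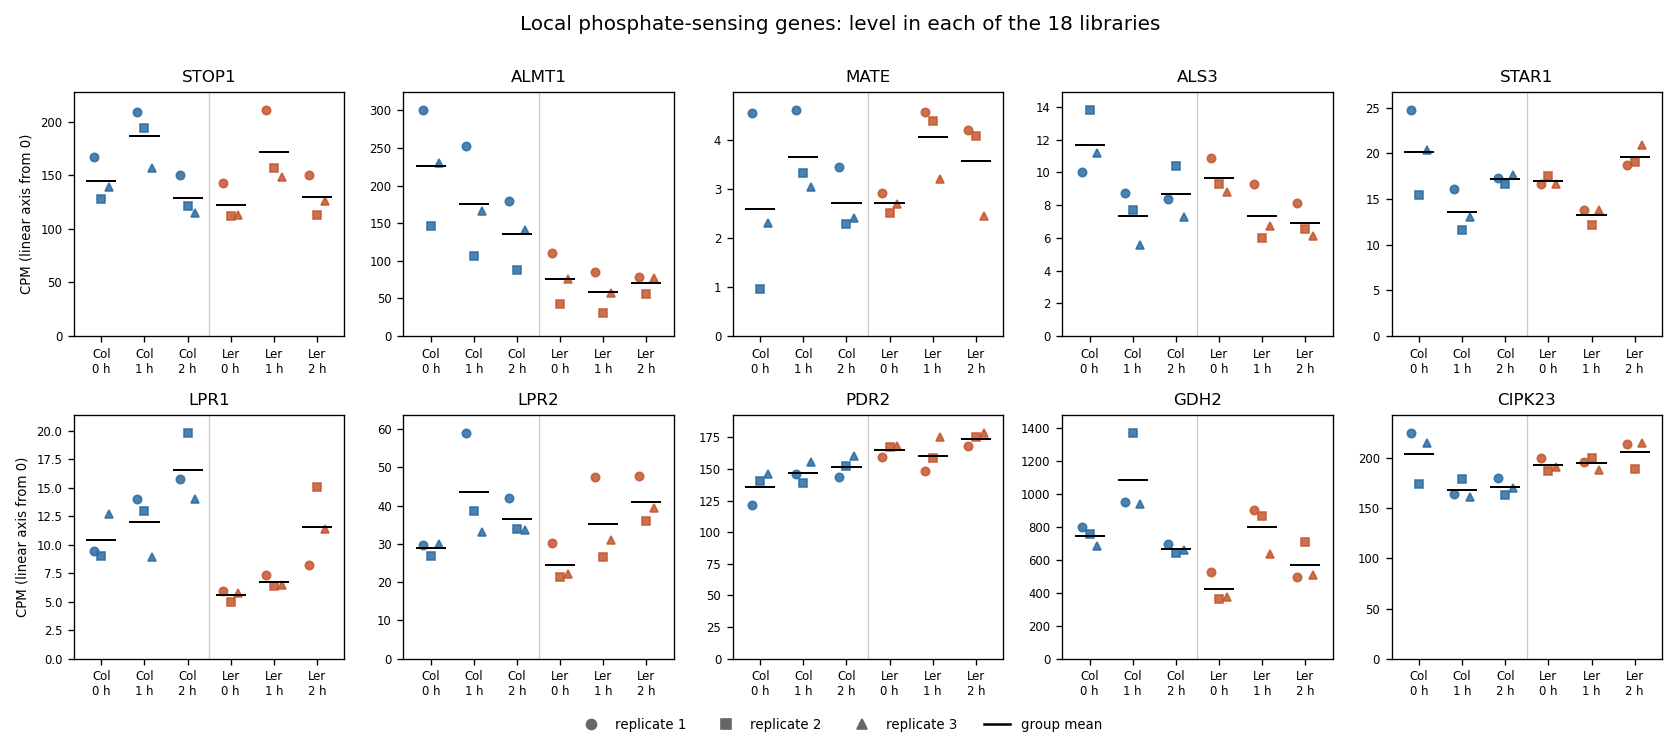
Level of each of the 10 genes in CPM (linear axis from 0) in every library, by ecotype and hours after transfer; points are libraries, their shape is the replicate number of the labels, and lines are group means (n = 3). STOP1 and GDH2 are highest at 1 h in both ecotypes, LPR1 at 2 h, and ALMT1 lies lower in Ler than in Col at each time.

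The transcription factor STOP1 was higher at 1 h than at either other time in both ecotypes. Its level in Col was 166.5, 127.5 and 138.5 CPM at 0 h (replicates 1, 2 and 3), then 208.6, 193.7 and 156.5 at 1 h, and 150.2, 121.2 and 114.6 at 2 h. The Ler libraries had 142.2, 112.2 and 112.6 CPM at 0 h, 210.6, 156.7 and 148.5 at 1 h, and 150.0, 112.4 and 125.5 at 2 h. The Ler libraries at 1 h all lay above those at 0 h, and the Col libraries at 2 h all lay below those at 1 h. The remaining pairs of times overlapped within an ecotype. The STOP1 locus overlaps a noncoding RNA gene on the other strand, AT1G06753, by 417 bases. That gene is not among the features common to all libraries, and whether counting used the strand is not stated.

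Averaged over the ecotypes, STOP1 rose by a log2 fold change of 0.43 (SE 0.12, adjusted p = 0.0186) from 0 h to 1 h and fell by 0.47 (SE 0.12, adjusted p = 0.0298) from 1 h to 2 h. At 2 h its average differed from 0 h by −0.04 (SE 0.12, adjusted p = 0.893, 95% interval −0.30 to 0.21). Within each ecotype the 1 h value missed the threshold, at 0.37 in Col (adjusted p = 0.191) and 0.49 in Ler (adjusted p = 0.106). Libraries with the same replicate number deviated together, and with that number as a block both passed (adjusted p = 0.0068 and 0.00162). The blocked values from 1 h to 2 h were −0.54 in Col (adjusted p = 0.00219) and −0.40 in Ler (adjusted p = 0.0134). The rise of the average was lost without Ler 0 h replicate 2 or without Ler 1 h replicate 1 (adjusted p up to 0.0552), and the later fall was lost in 7 of 12 such fits (Col 1 h replicates 1 and 2, Col 2 h replicates 2 and 3, Ler 1 h replicate 1, Ler 2 h replicates 2 and 3).

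Among the features tested, 19.8% were called between 1 h and 0 h in the average of the ecotypes, 9.76% upward and 10% downward. Of the 10 members 5 were called: STOP1, LPR2 and GDH2 rose, and ALS3 and STAR1 fell. From 1 h to 2 h 5.74% of features were called (2.48% upward, 3.26% downward), and 4 of the 10 members. STOP1 and GDH2 fell, and STAR1 and LPR1 rose. At 2 h against 0 h, where 8.63% of features were called (4.31% upward, 4.32% downward), 2 members were called, LPR1 and LPR2, both upward. These comparisons share libraries, so their counts are not independent of each other.

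Within single ecotypes few members passed. In Col 11.1% of features were called at 1 h against 0 h (5.35% upward, 5.73% downward), and 1 member, STAR1, which fell. In Col at 2 h against 0 h 6.39% of features (2.93% upward, 3.46% downward) and no member were called, while 25.6% of features had an unadjusted p under 0.05. DESeq2 called LPR1 there, and 11.8% of its features. Between 1 h and 2 h in Col 2.23% of features and no member were called (12.4% at an unadjusted p under 0.05), and DESeq2 called GDH2 and 4.04% of features. In Ler 6.82% of features were called at 1 h (4.26% upward, 2.55% downward), with GDH2 as the single member, which rose. At 2 h in Ler 2.8% were called (2.19% upward, 0.607% downward), with LPR1 as the single member, which rose. From 1 h to 2 h in Ler 1.1% of features and no member were called (14.5% at an unadjusted p under 0.05), and DESeq2 called STAR1, LPR1 and 3.88% of features. With the replicate block, the Col comparison at 1 h gave 6 members beside 21.7% of features, and the Ler comparison at 1 h gave 3 beside 14.5%. The blocked calls were 2 members beside 22.1% of features in Col at 2 h, 2 beside 5.65% in Col from 1 h to 2 h, and 2 beside 7.62% in Ler from 1 h to 2 h.

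**Figure D2:**
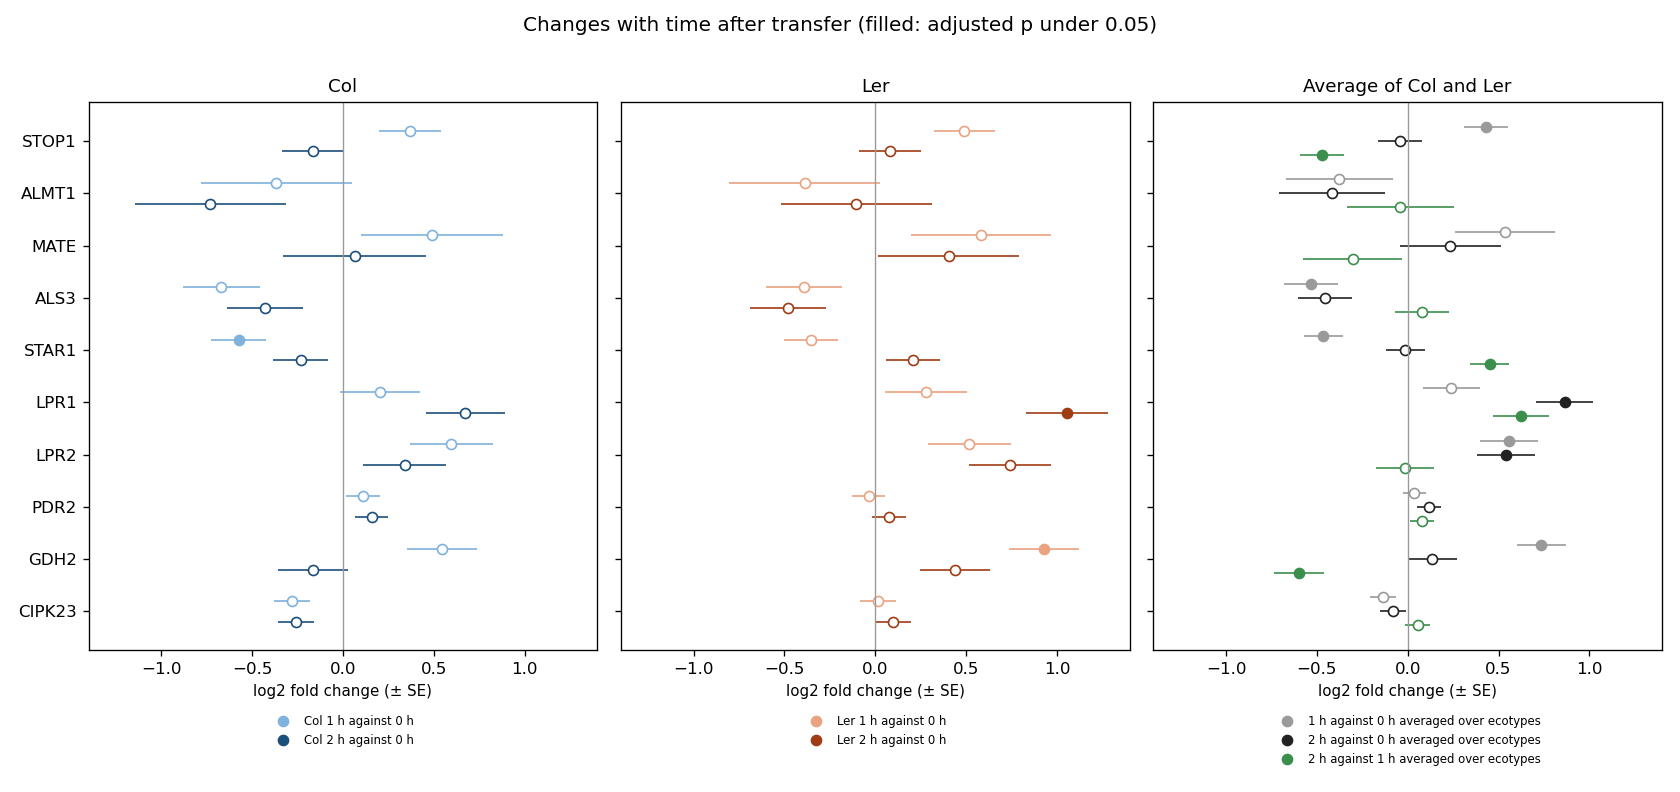
Log2 fold change ± SE of each member for the time comparisons within Col, within Ler and averaged over both; filled points have an adjusted p under 0.05 (edgeR, all 18 libraries). In the averaged panel STOP1 and GDH2 rise at 1 h and fall from 1 h to 2 h, STAR1 goes the other way, and LPR1 has the highest value at 2 h (0.86).

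The malate channel ALMT1 was not called in any time comparison of the unblocked fit, and its values lay lower after transfer in Col. They were 300.2, 146.2 and 229.8 CPM at 0 h, 252.5, 105.9 and 166.4 at 1 h, and 179.1, 87.79 and 140.6 at 2 h. The Ler libraries held 109.9, 41.87 and 75.93 CPM at 0 h, 85.64, 31.16 and 57.02 at 1 h, and 78.19, 56.18 and 77.39 at 2 h. The times overlapped within each ecotype. Replicate 2 was the lowest and replicate 1 the highest in all 6 groups, and at 1 h each library of either ecotype lay below the 0 h library of the same number. STOP1 and MATE also had replicate 1 highest in all 6 groups, as did 5.24% of all features.

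The log2 change of ALMT1 in Col was −0.37 at 1 h (SE 0.41, adjusted p = 0.624, 95% interval −1.25 to 0.52) and −0.73 at 2 h (SE 0.42, adjusted p = 0.282, 95% interval −1.61 to 0.15). With the replicate block the Col fall at 2 h was the same size with a smaller error and passed (−0.73, SE 0.14, adjusted p = 0.00299). In Ler the change was −0.39 at 1 h (adjusted p = 0.773, 95% interval −1.27 to 0.50) and −0.10 at 2 h (adjusted p = 0.947, 95% interval −0.99 to 0.78). Each of these upper bounds lies under a 2-fold rise. With the block ALMT1 also passed in the average of the ecotypes, downward, at 1 h (−0.39, SE 0.10, adjusted p = 0.00575; unblocked adjusted p = 0.417) and at 2 h (−0.36, SE 0.10, adjusted p = 0.0162; unblocked adjusted p = 0.458), beside 29.8% and 18.1% of features. Replicate numbers did not pair Ler at 0 h with Ler at 2 h, and that comparison is part of the 2 h average. STOP1 mRNA was thus higher at 1 h in the average, while ALMT1 mRNA was not called upward with or without the block.

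MATE, a citrate efflux transporter that STOP1 also activates, was close to the lower end of what was measured. In Col its level was 4.55, 0.955 and 2.30 CPM at 0 h, 4.62, 3.34 and 3.05 at 1 h, and 3.46, 2.28 and 2.42 at 2 h. In Ler it was 2.91, 2.52 and 2.70 at 0 h, 4.59, 4.38 and 3.22 at 1 h, and 4.21, 4.09 and 2.45 at 2 h. The Ler libraries at 1 h lay above those at 0 h, but no comparison of MATE was called, and the average rise at 1 h was 0.54 (SE 0.28, adjusted p = 0.199). Without Col 0 h replicate 1 this rise passed (adjusted p = 0.019).

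ALS3 and STAR1 encode partner subunits of an ABC transporter of the vacuolar membrane, whose loss makes root tips more sensitive to low phosphate. Both were lower at 1 h. The ALS3 level in Col was 10.02, 13.81 and 11.17 CPM at 0 h, 8.74, 7.71 and 5.58 at 1 h, and 8.36, 10.42 and 7.26 at 2 h. Ler libraries had 10.88, 9.29 and 8.82 CPM at 0 h, 9.32, 6.01 and 6.74 at 1 h, and 8.11, 6.53 and 6.13 at 2 h. The Col libraries at 1 h and the Ler libraries at 2 h lay below all libraries of their ecotype at 0 h. Averaged over ecotypes, ALS3 fell by 0.53 on the log2 scale at 1 h (SE 0.15, adjusted p = 0.0188) and stood at −0.45 at 2 h (SE 0.15, adjusted p = 0.0734, with the block 0.02). The blocked 2 h average includes the Ler comparison of 2 h with 0 h, where replicate numbers did not pair. In Col alone the 1 h change of ALS3 was −0.67 (adjusted p = 0.0536, with the block 0.0125).

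For STAR1 the Col levels were 24.72, 15.46 and 20.38 CPM at 0 h, 16.05, 11.63 and 12.99 at 1 h, and 17.26, 16.6 and 17.67 at 2 h. The Ler levels were 16.63, 17.55 and 16.61 CPM at 0 h, 13.84, 12.11 and 13.8 at 1 h, and 18.68, 19.03 and 20.92 at 2 h. In Ler the 3 times did not overlap: all libraries at 1 h were lowest and all at 2 h were highest. The averaged change was −0.46 at 1 h (SE 0.11, adjusted p = 0.00564) and 0.45 from 1 h to 2 h (SE 0.11, adjusted p = 0.02). The later rise was lost without Col 1 h replicate 2, Ler 1 h replicate 2 or Ler 2 h replicate 3 (adjusted p up to 0.0555). In Col the fall of 0.57 at 1 h (SE 0.15, adjusted p = 0.0226) was lost in 4 of 6 fits without 1 library (Col 0 h replicates 1 and 3, Col 1 h replicates 2 and 3; adjusted p up to 0.101) and when only the Col libraries at 0 h and 1 h were fitted. In Ler the rise from 1 h to 2 h was 0.56 (adjusted p = 0.0851, with the block 0.019). These partner genes both fell at 1 h in the average; the difference between them in the later course was not tested. The ALS3 and STAR1 loci overlap a gene on the other strand by 41 and 91 bases, and whether counting used the strand is not stated.

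LPR1, the cell wall ferroxidase, was higher at 2 h than at 0 h in every library of both ecotypes. Its level in Col was 9.41, 9.03 and 12.65 CPM at 0 h, 13.97, 12.92 and 8.93 at 1 h, and 15.78, 19.8 and 14.02 at 2 h. Ler libraries held 5.91, 4.98 and 5.76 CPM at 0 h, 7.33, 6.36 and 6.5 at 1 h, and 8.22, 15.03 and 11.34 at 2 h. The 2 h libraries lay above all libraries of 0 h and of 1 h within each ecotype.

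In the average of the ecotypes LPR1 rose by a log2 fold change of 0.86 at 2 h against 0 h (SE 0.16, adjusted p = 0.00295), a 1.82-fold difference, and this call was kept in all 12 fits that left out 1 library. The rise from 1 h to 2 h was 0.62 (adjusted p = 0.0262) and was lost in 5 of 12 such fits (Col 1 h replicate 3, Col 2 h replicate 2, Ler 1 h replicate 2, Ler 2 h replicates 2 and 3). At 1 h against 0 h the average was 0.24 (SE 0.16, adjusted p = 0.322). In Ler alone the 2 h rise was 2.08-fold (log2 1.05, SE 0.22, adjusted p = 0.0186). It was lost without Ler 0 h replicate 2 or 3 or Ler 2 h replicate 2 or 3 (adjusted p up to 0.0925) and when only the Ler libraries at 0 h and 2 h were fitted. In Col it was 0.67 (SE 0.22, adjusted p = 0.0756), with the block over all libraries 0.66 (adjusted p = 0.0435) and with a block within each ecotype 0.66 (adjusted p = 0.055), which missed the threshold. The summed level of 3 mature root hair markers (EXP7, COBL9, PRP3) went from 315.4–436.7 CPM at 0 h to 372.9–685 CPM at 2 h in Ler, and from 664.6–784.8 to 490.3–548.1 CPM in Col. It overlapped between the times in Ler and was lower at 2 h in Col. The median log2 change of these 3 markers was 0.68 in Ler and −0.39 in Col, and none was called in either. The summed level of the 7 root apex markers went from 79.53–122.9 to 123.6–135.9 CPM in Col, with no overlap, and 3 of the 7 were called, all upward (median log2 change 0.54). In Ler it went from 128.8–138.2 to 89.64–124.7 CPM, lower with no overlap, with 1 of 7 called, WOX5, upward (median −0.24). The part of either marker list in the LPR1 result was not tested. In bulk tissue, fewer cells of a type and less RNA per cell cannot be told apart. The LPR1 locus overlaps FRO3 on the other strand by 24 bases, and FRO3 had 513 to 2201 counts per library against 144 to 477 for LPR1.

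LPR2, the close relative of LPR1, was higher after transfer as well. In Col its level was 29.62, 26.83 and 30.08 CPM at 0 h, 59.03, 38.64 and 33.23 at 1 h, and 41.9, 34.0 and 33.57 at 2 h. The Ler levels of LPR2 were 30.15, 21.45 and 22.01 CPM at 0 h, 47.58, 26.65 and 31.08 at 1 h, and 47.65, 35.9 and 39.48 at 2 h. Both later Col groups and the Ler group at 2 h lay above the 0 h libraries of their ecotype, with replicate 1 far above the others at 1 h.

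The averaged rise of LPR2 was 0.56 at 1 h (SE 0.16, adjusted p = 0.0224) and 0.54 at 2 h (SE 0.16, adjusted p = 0.0493). The 1 h call was lost without Col 1 h replicate 1, Ler 0 h replicate 2 or 3, or Ler 1 h replicate 1 (adjusted p up to 0.0647). The 2 h call was lost in 11 of 12 such fits. Within Col at 1 h the change was 0.60 (adjusted p = 0.111, with the block 0.00717) and within Ler 0.52 (adjusted p = 0.231, with the block 0.0183). In these averages LPR2 was already called at 1 h and LPR1 at 2 h; their difference in timing was not tested. No other locus matched 50% or more of the length of any member at 95% identity. LPR1 and LPR2 share 14.9% of the LPR1 transcript at 80.9% identity. The longest match of any member was that of GDH2, where AT1G42490 covered 51.6% of the transcript at 88.4% identity.

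PDR2, which restrains LPR1 in the endoplasmic reticulum, was called in no time comparison. Its level in Col was 121.6, 140.7 and 145.9 CPM at 0 h, 146.1, 139.1 and 155.6 at 1 h, and 143.7, 152.0 and 159.9 at 2 h. PDR2 in Ler stood at 159.1, 167.1 and 168.3 CPM at 0 h, 148.2, 158.7 and 175.0 at 1 h, and 167.8, 175.1 and 178.6 at 2 h. Replicate 3 was the highest in all 6 groups, as for 1.74% of features. The averaged change was 0.04 at 1 h (SE 0.07, adjusted p = 0.749, 95% interval −0.10 to 0.18) and 0.12 at 2 h (SE 0.07, adjusted p = 0.323, 95% interval −0.02 to 0.26), so changes past about 1.2-fold lie outside both intervals.

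GDH2, reported as a target of STOP1, was also highest at 1 h in both ecotypes. The Col libraries held 796.4, 757.1 and 684.9 CPM at 0 h, 952.7, 1371 and 939 at 1 h, and 698.3, 640.2 and 657 at 2 h. The Ler libraries held 527.4, 364.7 and 371.4 CPM at 0 h, 901.6, 868.2 and 635 at 1 h, and 493, 710.2 and 508.4 at 2 h. In both ecotypes all libraries at 1 h lay above those at 0 h, and in Col all libraries at 2 h lay below those at 1 h.

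GDH2 rose 1.9-fold in Ler at 1 h (log2 0.93, SE 0.20, adjusted p = 0.00822), a call lost only without Ler 0 h replicate 2 (adjusted p = 0.0513) among the 6 fits without 1 library. In Col the change at 1 h was 0.54 (SE 0.19, adjusted p = 0.0859, with the block 0.0315). The averaged rise was 0.74 (SE 0.14, adjusted p = 0.00122). The averaged fall from 1 h to 2 h was 0.60 (fold 0.66, adjusted p = 0.0163), and this call was lost without Col 1 h replicate 2, Ler 1 h replicate 2 or Ler 2 h replicate 1 (adjusted p up to 0.0548). In Col alone it was 0.71 (adjusted p = 0.0746, with the block 0.0231). Of the 7 root apex markers, 2 were called at 1 h in Col and 1 in Ler, all upward, with a median log2 change of 0.58 and 0.11. Their summed level at 1 h was 109.2–147.7 CPM in Col and 128.8–143.5 CPM in Ler, overlapping 0 h in both. WOX5, the quiescent centre marker called in both and named after its values were seen, was at 0.525 to 0.999 CPM in Col and 0.874 to 1.90 in Ler at 0 h, and at 5.41 to 12 and 13.62 to 21.01 CPM at 1 h. The 3 mature root hair markers summed to 664.6–784.8 CPM at 0 h and 372.8–643.9 CPM at 1 h in Col, with no overlap. Of these 3, 1 was called there, downward (median −0.56). In Ler their sum went from 315.4–436.7 to 249.8–413.2 CPM, with overlap and none called (median −0.27). The part of either marker list in the 1 h results was not tested.

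CIPK23, a kinase of potassium and nitrate transporters that is also placed downstream of STOP1, was called in no comparison. Its Col levels were 225.3, 173.8 and 214.8 CPM at 0 h, 164.6, 179.5 and 161 at 1 h, and 180.2, 163.3 and 170.1 at 2 h. The Ler levels were 199.9, 187.6 and 190.8 CPM at 0 h, 196.1, 200 and 188 at 1 h, and 214, 189.5 and 215.2 at 2 h. Col replicate 2 at 0 h lay within the range of the later Col libraries, and the other 0 h libraries lay above it. The Col change at 1 h was −0.28 (SE 0.10, adjusted p = 0.0852, with the block 0.0428), and without Col 0 h replicate 2 it passed.

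The ecotypes differed most clearly in ALMT1, LPR1 and GDH2, which were lower in Ler, and slightly in PDR2, which was higher. At 0 h 17.7% of features were called between Ler and Col (8.55% higher and 9.14% lower in Ler), and these 4 of the 10 members. At 1 h 14% of features were called (6.94% higher, 7.05% lower), and 2 members, ALMT1 and LPR1, both lower in Ler. At 2 h 15.8% of features were called and no member, while 28.5% of features had an unadjusted p under 0.05. DESeq2 called CIPK23 there, and 18% of features; with the replicate block ALMT1 and CIPK23 were called beside 25.7%. Averaged over times 32.7% of features were called (16.5% higher, 16.1% lower) and the same 4 members as at 0 h.

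For ALMT1 the highest Ler library lay below the lowest Col library at each of the 3 times. Its mean at 0 h was 225.4 ± 77.1 CPM in Col and 75.9 ± 34.0 in Ler (SD, n = 3 each), a fold of 0.337 (log2 −1.57, SE 0.42, adjusted p = 0.0176). At 1 h the difference was −1.59 (SE 0.42, adjusted p = 0.0187), and at 2 h −0.94 (SE 0.42, adjusted p = 0.149, with the block −0.88, SE 0.14, adjusted p = 0.000258). Averaged over times it was −1.37 (SE 0.24, adjusted p = 3.87e-04), a fold of 0.387, and this call was kept in all 18 fits that left out 1 library. Single times did depend on libraries: the 0 h call was lost without Col replicate 1 or Ler replicate 2 or 3 (adjusted p up to 0.0754), and the 1 h call without the same replicates at 1 h (adjusted p up to 0.0976). ALMT1 was the sole member called with at least a 2-fold difference at 0 h, at 1 h and over all times, as were 8.92%, 8.24% and 10.1% of features. Its nearest relative in sequence, AT1G08440, matched 35.2% of its transcript at 82.8% identity.

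LPR1 stood at 10.4 ± 1.99 CPM in Col and 5.55 ± 0.50 in Ler at 0 h (SD, n = 3 each), with no overlap at 0 h or 1 h and overlap at 2 h. The log2 difference was −0.90 at 0 h (SE 0.22, adjusted p = 0.0106), −0.83 at 1 h (SE 0.22, adjusted p = 0.0194) and −0.52 at 2 h (SE 0.22, adjusted p = 0.126). The 0 h call was lost without Col replicate 3 (adjusted p = 0.0553), and the 1 h call without Col replicate 1 or 2 or Ler replicate 2 or 3 (adjusted p up to 0.0875). Over all times LPR1 was lower by −0.75 (SE 0.13, adjusted p = 2.63e-04). GDH2 was lower in Ler by −0.82 at 0 h (SE 0.19, adjusted p = 0.00753), −0.44 at 1 h (adjusted p = 0.163) and −0.22 at 2 h (adjusted p = 0.487). Its Ler libraries lay below all Col libraries at 0 h and 1 h. PDR2 was higher in Ler by 0.28 at 0 h (SE 0.09, adjusted p = 0.0496), a call lost in 5 of 6 fits without 1 library, with RLE size factors, without the filter on low counts and when only the 0 h libraries were fitted, and by 0.20 over all times (SE 0.05, adjusted p = 0.0086).

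No ecotype difference was called for STOP1. Its Ler minus Col difference was −0.24 at 0 h (95% interval −0.60 to 0.12), −0.12 at 1 h (−0.48 to 0.25) and 0.01 at 2 h (−0.35 to 0.37), with adjusted p from 0.363 to 0.984. CIPK23 was higher in Ler by 0.27 at 2 h (adjusted p = 0.0838, with the block 0.0425), where its libraries did not overlap. The ecotype difference in other tissue markers stands beside these results. The 3 mature root hair markers summed to 664.6–784.8 CPM in Col and 315.4–436.7 CPM in Ler at 0 h, and all 3 were called lower in Ler over all times. Their median Ler minus Col difference was −1.025 at 0 h (2 called lower), −0.521 at 1 h (1 called lower) and 0.007 at 2 h (none called). The 5 leaf markers summed to 10.12–32.33 CPM in Col and 26.78–57.26 CPM in Ler at 0 h, and 2 of the 4 tested were called higher in Ler. Among the 5, RBCS2B was at 0 in 16 of 18 libraries. RBCS1A and LHCB1.3 were detected in every library, at up to 24.9 and 26.3 CPM. The 7 root apex markers summed to 79.53–122.9 CPM in Col and 128.8–138.2 CPM in Ler at 0 h, with no overlap, and 3 of 7 were called, all higher in Ler (median 0.74). At 1 h none of them was called (median 0.16), and at 2 h 1 was called lower in Ler (median −0.32). The part of these markers in the ecotype results was not tested. The Ler files list 32852 features and the Col files list 33602, and whether both ecotypes were counted on the same sequence is not stated.

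**Figure D3:**
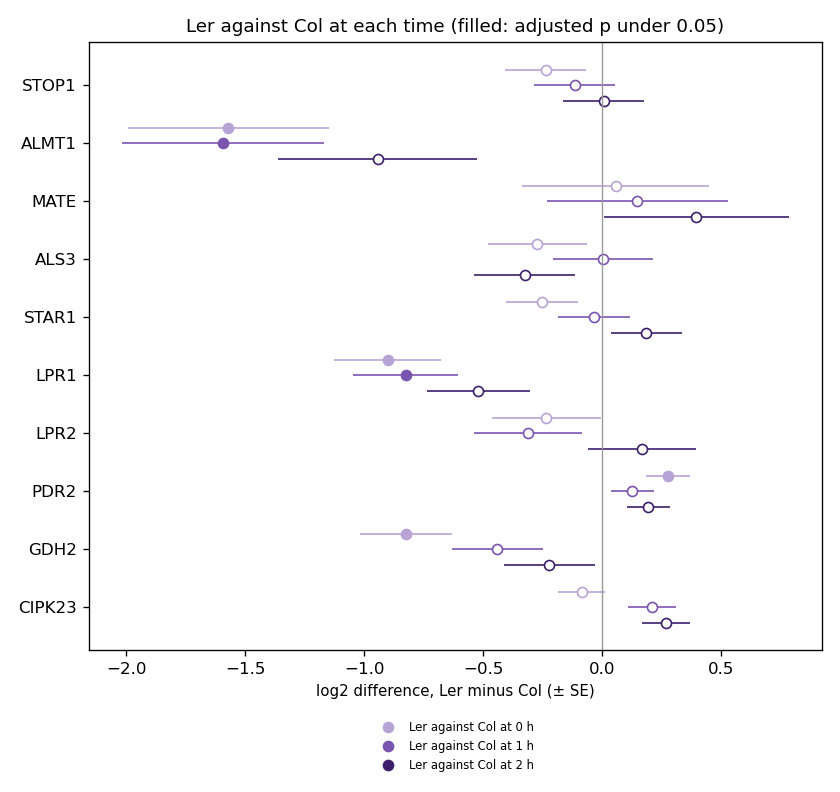
Log2 difference of Ler minus Col ± SE for each member at 0, 1 and 2 h; filled points have an adjusted p under 0.05 (edgeR, all 18 libraries). ALMT1 lies between −1.59 and −0.94 at all 3 times and LPR1 between −0.90 and −0.52, while STOP1 stays within −0.24 to 0.01.

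Whether the time course itself differed between the ecotypes was tested as an interaction. No member was called at 1 h, where 0.00485% of features (1 feature) passed and 2.72% had an unadjusted p under 0.05, or at 2 h, where 0% passed and 17.6% had an unadjusted p under 0.05. DESeq2 called no member either, and 0.0564% and 0.766% of features. The result at 2 h depended on 1 library: without Col 0 h replicate 2, 1355 of 20813 features and 1 member, CIPK23, were called. With a replicate block within each ecotype ALMT1 was called at 2 h (0.73, SE 0.20, adjusted p = 0.0488), beside 8.15% of features. With the block over all libraries no member was called, beside 0.384%. Both blocked fits at 2 h use the Ler comparison of 2 h with 0 h, where replicate numbers did not pair. At 2 h the change of ALMT1 was 0.63 higher in Ler than in Col (SE 0.59, adjusted p = 0.568) and that of GDH2 0.60 higher (SE 0.27, adjusted p = 0.275). For LPR1 the difference at 2 h was 0.38 (SE 0.31, adjusted p = 0.509), with a 95% interval from −0.28 to 1.04. The median over the 10 members at 2 h was 0.37, against 0.02 over all features.

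Other genes of the pathway were taken from lists of published roles. These lists were chosen with earlier results of these data known. Their counts and medians beside all features are therefore a description and not an independent test. Among 10 regulators of STOP1 protein and mRNA, 1 fell in Col at 1 h and at 2 h, where 5.73% and 3.46% of all features fell, and none was called in Ler at either time. This was AT5G27920, annotated as an F-box family protein. Its Col levels were 128.1, 124.1 and 155.9 CPM at 0 h, 81.29, 84.92 and 95.52 at 1 h, and 96.19, 74.88 and 97.42 at 2 h, with no overlap between 0 h and either later time. The changes were −0.64 (SE 0.14, adjusted p = 0.00894) and −0.60 (SE 0.14, adjusted p = 0.0253), the latter lost in 4 of 6 fits without 1 library; in Ler they were −0.24 (adjusted p = 0.433) and −0.39 (adjusted p = 0.182). The averaged changes of −0.44 (SE 0.10, adjusted p = 0.0056) and −0.49 (SE 0.10, adjusted p = 0.0066) were called as well, and the interaction was not (adjusted p = 1 and 0.564). Among 5 other regulators of ALMT1, WRKY46, a repressor of ALMT1, was the single gene called within an ecotype, with a rise in Ler at 1 h, where 4.26% of all features rose. It was scarce: 0.0777, 0.311 and 0 CPM in Ler at 0 h and 0.629, 2.56 and 0.415 at 1 h. The rise (log2 3.13, SE 0.88, adjusted p = 0.0437) was lost without Ler 0 h replicate 1 or 3 or Ler 1 h replicate 2 (adjusted p up to 0.310). In Col, where WRKY46 went from 0.0869–0.391 CPM at 0 h to 0.776–0.881 at 1 h, the change was 1.82 (SE 0.85, adjusted p = 0.196). The WRKY46 change in Col at 2 h was 2.48 (adjusted p = 0.0834, with the block 0.0242), and its Ler minus Col difference at 2 h was −2.20 (adjusted p = 0.078, with the block 0.0263).

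Of 10 other genes reported downstream of STOP1, 2 rose in each ecotype at both times, PGIP2 and HAK5, and 1 fell in Col at 1 h. Over all features 5.35% rose and 5.73% fell in Col at 1 h, 4.26% rose in Ler at 1 h, and 2.93% and 2.19% rose at 2 h in Col and Ler. PGIP2, an inhibitor of pectin-degrading enzymes, rose 30.9-fold in Col and 21.4-fold in Ler at 1 h (adjusted p = 2.82e-05 and 8.09e-05). Its Col levels were 0.394, 0.174 and 0.348 CPM at 0 h, 7.03, 14.42 and 7.21 at 1 h, and 1.297, 2.53 and 2.27 at 2 h. Its Ler levels were 0.505, 0.104 and 0.255 CPM at 0 h, 6.77, 7.37 and 4.32 at 1 h, and 2.31, 4.25 and 2.54 at 2 h. The size of the fold changes of PGIP2 thus rests on few counts at 0 h. At 2 h it was still higher than at 0 h, by 2.71 on the log2 scale in Col (adjusted p = 0.0104) and 3.40 in Ler (adjusted p = 0.00159). In Col it fell by 2.23 from 1 h to 2 h (adjusted p = 0.00844, lost without Col 1 h replicate 2 or Col 2 h replicate 1, adjusted p up to 0.0555).

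HAK5, a high-affinity potassium transporter, rose and stayed high. Its Col levels were 3.89, 0.434 and 1.13 CPM at 0 h, 17.61, 12.95 and 13.91 at 1 h, and 24.17, 4.82 and 13.18 at 2 h. In Ler it was at 1.67, 0.449 and 0.984 CPM at 0 h, 31.93, 21.38 and 20.3 at 1 h, and 43.56, 23.48 and 25.43 at 2 h. The 0 h libraries lay below all later libraries of the same ecotype. The log2 changes were 3.02 and 2.95 in Col at 1 h and 2 h (adjusted p = 0.00636 and 0.0183, the latter lost without Col 0 h replicate 3 or Col 2 h replicate 1, adjusted p up to 0.0786) and 4.58 and 4.91 in Ler (adjusted p = 7.82e-04 and 0.00138). The Ler minus Col difference of HAK5 at 2 h was 1.13 (adjusted p = 0.202, with the block 0.01).

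The gene that fell was AT1G18420, annotated in the aluminum activated malate transporter family like ALMT1, with a change of −0.69 in Col at 1 h (SE 0.17, adjusted p = 0.015). It went from 46.85–58.36 CPM at 0 h to 28.66–40.89 at 1 h, and the call was lost without Col 1 h replicate 2 or 3 (adjusted p up to 0.0656). NRT1.1, a nitrate transporter, was lower in Ler at 0 h, at 225–338.2 CPM against 353–911.2 in Col (log2 −1.31, SE 0.36, adjusted p = 0.0201), a call lost without Col replicate 1 or 3 or Ler replicate 2 or 3 (adjusted p up to 0.0912). At 1 h the same difference was −1.1 (adjusted p = 0.0541, with the block 9.50e-05), and at 2 h −0.15 (adjusted p = 0.827). From 1 h to 2 h in Ler the log2 difference of NRT1.1 was 0.73 (adjusted p = 0.376, with the block 0.0102), and that of AT1G18420 was 0.57 (adjusted p = 0.12, with the block 0.0293). Both NRT1.1 and ALMT1 had replicate 2 as the lowest in all 6 groups. The share of all features with replicate 2 lowest throughout was not computed, and a link between the 2 genes was not tested.

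The calcium sensors CBL1 and CBL9, which recruit CIPK23, moved in opposite directions at 1 h in the average of the ecotypes (0.66 and −0.35, adjusted p = 0.00564 and 0.0024). CBL9 fell in Col from 34.81–36.08 CPM at 0 h to 24.14–27.58 at 1 h (log2 −0.44, SE 0.10, adjusted p = 0.0112) and 23.66–29.27 at 2 h (−0.39, adjusted p = 0.0352, lost in 5 of 6 fits without 1 library). In Ler it was at −0.27 at 1 h (adjusted p = 0.144). CBL1 rose in Ler from 14.8–19.53 CPM to 26.01–31.93 at 1 h (0.74, SE 0.21, adjusted p = 0.0481), a call lost in 6 of 6 fits without 1 library (adjusted p up to 0.197). In Col its change was 0.57 (adjusted p = 0.103, with the block 0.0451).

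**Figure D4:**
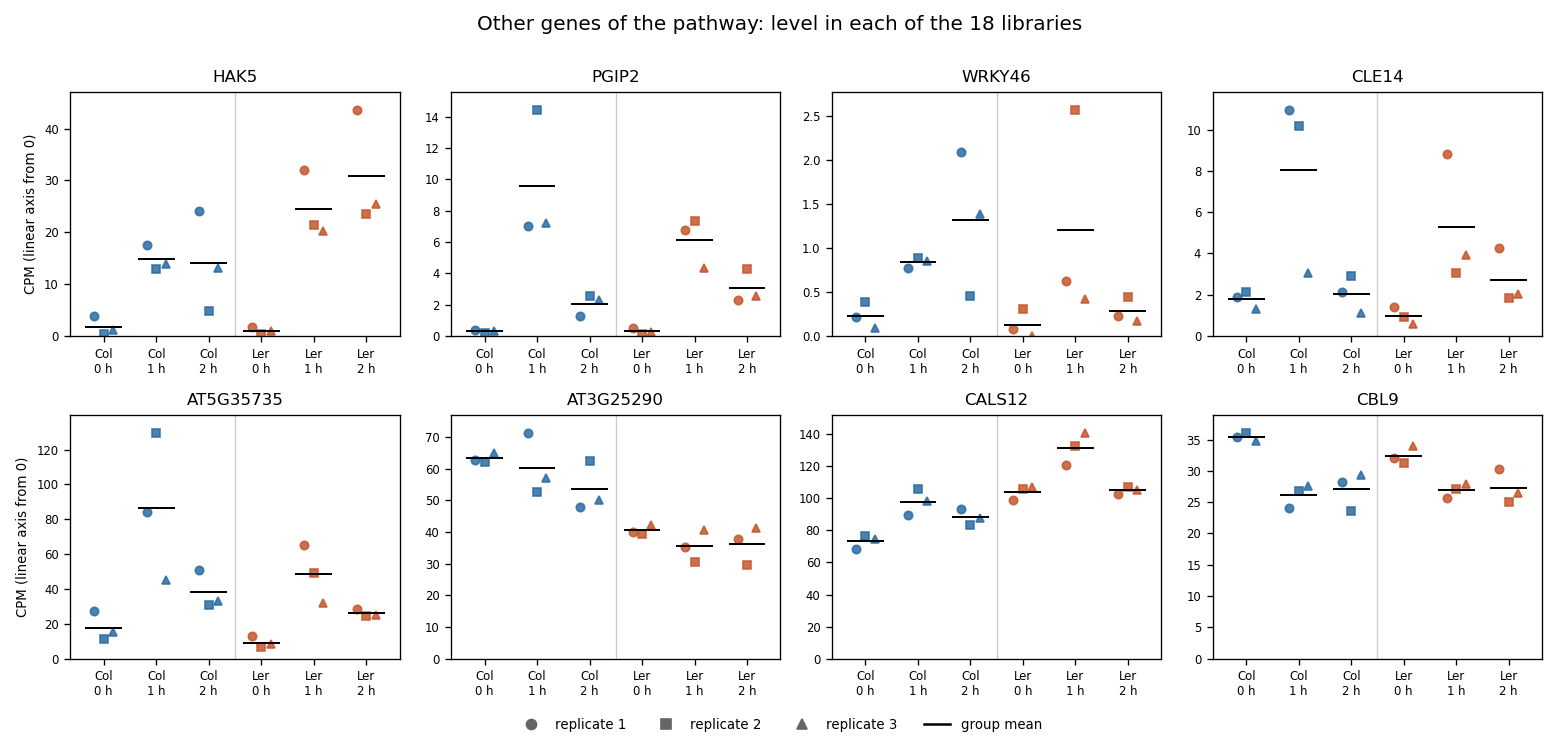
Level in CPM (linear axis from 0) of 8 other genes of the pathway in every library; points are libraries, their shape is the replicate number, and lines are group means (n = 3). PGIP2, CLE14 and AT5G35735 are highest at 1 h, HAK5 stays high at 2 h, AT3G25290 is lower in Ler than in Col at all times, and WRKY46 never exceeds 2.56 CPM.

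Of 11 further genes around LPR1, PDR2 and iron in the root tip, 3 rose in Col and 3 in Ler at 1 h, where 5.35% and 4.26% of all features rose, none fell, and none was called in either ecotype at 2 h. The list's median log2 change at 1 h was 0.42 in Col and 0.29 in Ler, against 0.03 and −0.01 over all features. The same 3 loci were called in both ecotypes: CLE14, AT5G35735 and CALS12. CLE14 encodes a peptide that acts in the loss of the root meristem under low phosphate. Its Col levels were 1.88, 2.13 and 1.304 CPM at 0 h, 10.95, 10.2 and 3.05 at 1 h, and 2.13, 2.91 and 1.11 at 2 h. Its Ler levels were 1.399, 0.898 and 0.583 CPM at 0 h, 8.84, 3.07 and 3.91 at 1 h, and 4.24, 1.84 and 2.06 at 2 h. All libraries at 1 h lay above those at 0 h. The rises at 1 h were 2.18 in Col (SE 0.54, adjusted p = 0.0159) and 2.46 in Ler (SE 0.56, adjusted p = 0.0134), each lost in 3 of 6 fits without 1 library, with adjusted p up to 0.0729 (Col 0 h replicates 1 and 3, Col 1 h replicate 2) and 0.0732 (Ler 0 h replicates 2 and 3, Ler 1 h replicate 1). At 2 h in Col the range of CLE14 enclosed that of 0 h (0.21, adjusted p = 0.846), and the Col fall from 1 h to 2 h was 1.98 (adjusted p = 0.0688, with the block 0.0059).

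AT5G35735, annotated as an auxin-responsive family protein, was the second of the 3. It was at 27.08, 11.03 and 15.26 CPM in Col at 0 h, 84.4, 129.6 and 45.24 at 1 h, and 50.62, 30.92 and 32.88 at 2 h. In Ler it was at 12.86, 6.74 and 8.16 CPM at 0 h, 65.15, 48.89 and 31.91 at 1 h, and 28.68, 24.52 and 25.17 at 2 h. No library at 1 h or 2 h fell into the 0 h range of its ecotype. The rises at 1 h were 4.86-fold in Col (adjusted p = 0.0017) and 5.26-fold in Ler (adjusted p = 0.00191), and both were kept in every fit without 1 library. At 2 h the changes were 1.1 in Col (adjusted p = 0.0959, with the block 0.0185) and 1.5 in Ler (adjusted p = 0.0556). From 1 h to 2 h the Col difference of AT5G35735 was −1.18 (adjusted p = 0.151, with the block 0.029). Its Ler minus Col difference was −0.94 at 0 h (adjusted p = 0.114, with the block 0.0372) and −0.83 at 1 h (adjusted p = 0.186, with the block 0.048). The gene was lower in Ler over all times (−0.77, SE 0.22, adjusted p = 0.0139).

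AT3G25290, with the same annotation, was called in no time comparison but differed between ecotypes. It was at 61.95–65.02 CPM in Col and 39.38–42.19 in Ler at 0 h, 52.51–71.28 and 30.5–40.7 at 1 h, and 47.81–62.35 and 29.57–41.23 at 2 h, with no overlap at any time. The Ler minus Col differences were −0.64, −0.76 and −0.56 (adjusted p = 0.00635, 0.00194 and 0.016), the last lost without Col 2 h replicate 2 or Ler 2 h replicate 2 (adjusted p up to 0.116). CALS12, a callose synthase, rose at 1 h from 68.11–76.76 to 89.79–106.1 CPM in Col (0.42, SE 0.09, adjusted p = 0.00643, lost without Col 0 h replicate 1 or Col 1 h replicate 2). In Ler it rose from 98.95–107 to 120.7–140.9 CPM (0.34, adjusted p = 0.0315), a call lost in 5 of 6 such fits. It was higher in Ler by 0.51 at 0 h (adjusted p = 8.50e-04) and 0.42 at 1 h (adjusted p = 0.0039). At 2 h that difference was 0.25 (adjusted p = 0.0722, with the block 0.0312). The CALS12 change in Col at 2 h was 0.27 (adjusted p = 0.0797, with the block 0.0244), and in Ler from 1 h to 2 h it was −0.32 (adjusted p = 0.0936, with the block 0.0234). LPR1 and AT3G25290 were thus lower and CALS12 and PDR2 higher in Ler at 0 h.

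Among 15284 features with a mean of at least 5 CPM, those with the course most like each member called in time were found by the root mean square difference of centred log2 CPM over the 18 libraries, which the compared genes share. For STOP1 the closest were AT1G21080 (0.124), AT4G02890 (UBQ14, 0.125) and AT3G04730 (IAA16, 0.133), against a median of 0.396. LPR1 had no neighbour as close: AT5G02270 (0.240), AT3G61220 (0.269) and AT4G15500 (0.273), against a median of 0.624. For LPR2 they were AT5G19440 (0.169), AT3G29034 (0.177) and AT5G54810 (0.179), and for GDH2 AT3G19390 (0.206), AT5G48150 (0.217) and AT2G39700 (0.226). ALS3 was closest to AT5G09960 (0.152), AT1G01630 (0.166) and AT3G12710 (0.167), and STAR1 to AT3G30841 (0.127), AT5G54670 (0.134) and AT4G00680 (0.136). No member was among the 3 nearest of another.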

How the data were processed

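Raw read counts per locus were deposited by the authors, 1 table per library, from poly(A)-selected, stranded, paired-end libraries per the labels. The submitters' processing notes name TopHat2, Bowtie2 and TAIR10 without roles, and the counting tool, annotation, strand setting and treatment of reads with several matches are not given in the sources used here. Groups came from the labels. The 32852 features common to all libraries were filtered with filterByExpr (at least 10 counts in the median-sized library, 15 in total), scaled by TMM and fitted in edgeR 4.0.16 (limma 3.58.1, R 4.3.3) by quasi-likelihood with 1 mean per group (12 residual degrees of freedom, common biological coefficient of variation 21.5%). Benjamini-Hochberg adjustment ran over all 20599 features within each of 15 comparisons. The SE is the log2 fold change divided by the square root of F. The fit was tested on simulated data.

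Same-numbered libraries deviated together (mean correlation 0.352 over 45 pairs, against −0.174 for different numbers). Deviations were taken from the group mean and cancel within a group, so the second value follows largely from the first. The numbers were taken to pair 2 groups where all 3 pairs exceeded 0.1, which held for 8 of 9 comparisons of 2 groups and not for Ler at 2 h against 0 h. For these 8 comparisons the blocked value is printed with the result where it changes a call. Those of Ler at 2 h against 0 h are given with the other alternatives. Some blocked averages and blocked interactions are also printed, and at 2 h these include the Ler comparison that did not pair. All 64 listed loci matched the RefSeq TAIR10.1 table, which supplied names, coordinates, promoters and overlaps. Members and lists were chosen with earlier results of these data known. Every member is named. A list gene is named with values when it passed in a comparison within an ecotype or between ecotypes at 1 time.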

Additional observations from a re-analysis of the deposited data

How the results depend on the processing

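No call of a member or list gene changed direction under any setting. Of the single-gene values under other settings, 5200 kept their side of the threshold, 182 of those called lost it and 122 gained it. Requiring at least a 2-fold change left 0 members in the 3 averaged time comparisons and in Col and Ler at 1 h, and 1 between ecotypes at 0 h, at 1 h and over all times. The shares of all features were 6.98% (1 h), 2.95% (2 h) and 1.98% (1 h to 2 h) in the averages. They were 5.98% and 4.06% in Col and Ler at 1 h, and 8.92%, 8.24% and 10.1% between ecotypes. For Col, DESeq2 gave 3 members at 1 h (beside 13.8% of features), 1 at 2 h (11.8%) and 1 from 1 h to 2 h (4.04%); for Ler it gave 2 at 2 h (5.54%) and 2 from 1 h to 2 h (3.88%), between ecotypes 1 at 2 h (18%), and 3 in the average at 2 h (11.6%), with ALS3 added. RLE size factors, no filter on low counts and a mean of at least 1 CPM each left 1 member at 2 h in the average, LPR1, and the first and second of these also lost PDR2 between ecotypes at 0 h. They called 8.54%, 6.04% and 8.88% of features in the 2 h average. Between ecotypes at 0 h the first and second called 17.8% and 13.5%. Fitting the contrasted libraries alone left 0 in Col at 1 h and in Ler at 2 h, 2 in the average from 1 h to 2 h and 1 between ecotypes at 1 h, and it lost LPR2 in the average at 1 h (4 members left) and PDR2 between ecotypes at 0 h (3 left). In these 6 comparisons it called 4.03%, 2.39%, 4.55%, 8.93%, 17.8% and 12.2% of features, in the order named. That fit has fewer libraries behind its spread. It was not run for the ecotype comparison over all times, which uses all libraries.

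Blocking on replicate number gave counts of 6 (Col 1 h), 2 (Col 2 h), 2 (Col 1 h to 2 h), 3 (Ler 1 h), 2 (Ler 2 h), 2 (Ler 1 h to 2 h), 4 (average at 2 h, with ALMT1 at −0.36 and ALS3 at −0.46 added, beside 18.1% of features) and 2 (ecotypes at 2 h). A block within each ecotype gave, in place of these, ALMT1 and ALS3 rather than ALMT1 and LPR1 in Col at 2 h, 7 members in the average at 1 h (ALMT1 and MATE added, beside 32.8%), and 1 at 2 h between ecotypes (ALMT1, 14.6%). Between ecotypes it also gave 5 at 0 h (STAR1 added, 26.5%), 1 at 1 h (LPR1 lost, 16.8%) and 3 over all times (GDH2 lost, 25%), and in the interaction at 2 h 1, ALMT1 (8.15%). Elsewhere it called as many members as the block over all libraries. In Ler at 2 h, where numbers did not pair, the block added LPR2 (adjusted p = 0.00263), NRT1.1 (0.000911), AT5G35735 (0.00713) and CLE14 (0.0293); in the average at 2 h it added NRT1.1 (0.00548), CLE14 (0.0483) and WRKY46 (0.0491), and in the interaction at 2 h NRT1.1 (0.0482). At 1 h in the average the block added ALMT1 (−0.39, adjusted p = 0.00575). Blocked backgrounds were 21.7% of features in Col at 1 h and 8.86% in Ler at 2 h. Beside these and the blocked values given with the results, the block over all libraries changed no other member call between 2 groups.

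Leaving out 1 library at a time gave 0 to 2 members at 1 h and 0 to 1 at 2 h for Col, 0 to 1 at each time for Ler, 3 to 6 in the average at 1 h, 1 to 2 at 2 h and 1 to 4 from 1 h to 2 h. These fits tested 20779 to 20825 features. They called 1159 to 3101 features in Col at 1 h and 271 to 3241 at 2 h. In Ler they called 755 to 1265 and 227 to 488. In the averages they called 3212 to 4781 at 1 h, 1206 to 1940 at 2 h and 711 to 1523 from 1 h to 2 h. Between ecotypes the same fits gave 2 to 5 members at 0 h, 0 to 2 at 1 h, 0 to 1 at 2 h and 4 to 5 over all times, and 0 to 1 in the interaction at 2 h. Features called between ecotypes were 2308 to 4639 at 0 h, 2099 to 2664 at 1 h, 2228 to 3074 at 2 h and 6034 to 6931 over all times. In the interaction at 2 h they were 0 to 1355, the most without Col 0 h replicate 2, where CIPK23 was called. The cause of these changes was not tested. Among the members, low levels limit MATE most (0.955 CPM in 1 library). Among the list genes they limit WRKY46, and also PGIP2, HAK5 and CLE14 at 0 h.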
